A study of Mus musculus with 32 samples.

Results

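Restoration of *Lkb1* was compared between mouse lung tumors with wild-type *Trp53* and lung tumors without it, to ask which parts of the transcriptional response to restoration are common to both backgrounds and which differ. The comparison is a difference of differences: the effect of restoration in *Trp53*-deficient tumors minus the effect of restoration in *Trp53* wild-type tumors. All libraries of the 4 *Lkb1XTR* groups were members, 28 of the 32 libraries in the series. The 4 *KT* libraries, from tumors with an untargeted *Lkb1* gene, were not.

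Every tumor in these groups carried *Rosa26* LSL-tdTomato and 2 copies of *Lkb1XTR*, a gene trap placed in *Lkb1* (gene symbol *Stk11*) that Cre inverts into its silencing orientation and that FLPo recombinase removes. Tumors were started by lentiviral Cre delivered into the airways, so the trap and, in the *Trp53* flox/flox animals, deletion of *Trp53* began together. Restored tumors had FLPo-ERT2 in *Rosa26* and were given tamoxifen, 4 mg a dose, over 2 weeks. Non-restored tumors came from 2 control arms, FLPo-ERT2 animals given vehicle and animals without FLPo-ERT2 given tamoxifen. With wild-type *Trp53* there were 10 non-restored libraries (6 vehicle, 4 tamoxifen) and 7 restored libraries. With deleted *Trp53* there were 7 non-restored libraries, counted as 4 animals (2 vehicle, 2 tamoxifen), and 4 restored libraries, counted as 4 animals. Libraries whose titles share a JB number were taken as the same animal. Every other title was taken as its own animal, which the labels do not state. Counts of libraries from the same animal were added up, giving 25 units, in which each wild-type library stands alone because the labels do not tie these libraries to mice, and no library served in both backgrounds. The *Lkb1XTR* line came from 1 targeted embryonic stem cell clone and the mice were of mixed background.

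The groups differed in more than the named alleles. Wild-type *Trp53* tumors were collected 24 to 27 weeks after initiation and *Trp53*-deficient tumors at 16 to 19 weeks, so tumor age and *Trp53* status cannot be told apart. All 11 restored units were female, whereas 3 of 10 and 2 of 4 non-restored units were male. In *Trp53*-deficient non-restored tumors the control arm also coincided with the series of library titles. Units held between 1485923 and 8258398 expected counts, and a count of 0 allowed a level of up to 0.389 CPM (counts scaled to a common library total) in the deepest unit and 1.97 CPM in the shallowest. Cells had been sorted by flow cytometry to exclude CD45, CD31, F4/80 and Ter119. The summed epithelial markers were 6615 to 57500 CPM over the 25 units, against at most 422.5 CPM for immune, 134.9 CPM for endothelial and 1528 CPM for fibroblast markers. Non-restored replicate 8 (6615 CPM) and non-restored *Trp53*-deficient animal 4 (7703 CPM) had the lowest epithelial sums of their groups. The surfactant genes *Sftpc* and *Sftpb* made up 51% to 97.3% of each sum, and those same units had the highest sums of the other 5 markers in their groups (3239 and 3345 CPM). In bulk RNA, fewer cells of a type and less RNA per cell cannot be told apart.

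LKB1 is a kinase that phosphorylates the activation loop of AMPK and of the AMPK-related kinases, among them the salt-inducible kinases (SIKs) and the MARKs. SIKs hold the CRTC coactivators in the cytoplasm, and CRTCs that enter the nucleus drive genes bound by CREB. p53, the product of *Trp53*, is a transcription factor that induces genes of cell cycle arrest, DNA repair and apoptosis, and AMPK is one of several kinases described to act upstream of it.

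The trap reported on its own gene. *Stk11* (chromosome 10, 80115803 to 80130682) was between 0 and 1.08 CPM in the 10 non-restored libraries with wild-type *Trp53*, with a median of 0.374 CPM and at most 2 counts. It was 11.6 to 22.5 CPM in the 7 restored libraries, with a median of 15.5 CPM. In the 4 *Trp53*-deficient non-restored animals it was 0.519, 0.309, 0 and 0.458 CPM, and in the 4 restored animals 12.8, 8.55, 10.9 and 14.9 CPM. The groups did not overlap in either background. The ratio of summed counts was 51.2 (95% exact interval 27.6 to 108) with wild-type and 37.0 (17.6 to 93.2) with deleted *Trp53*, with intervals that cover counting error only. The difference of the log2 effects was -0.32 (SE 0.74, 95% interval -1.84 to 1.2). The level after restoration in *Trp53*-deficient tumors was 74.2% of that in wild-type tumors, a gap that a two-sided exact permutation test over all 330 splits gave a p of 0.0636. No non-restored animal or library held more than 4 *Stk11* counts.

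*Trp53* itself (chromosome 11, 69580359 to 69591873; all positions are in mm10) was 11.8 to 39.7 CPM in the 17 wild-type libraries. In the *Trp53*-deficient animals it was 1.43, 4.94, 2.52 and 1.37 CPM without and 3.83, 2.39, 3.63 and 2.66 CPM with restoration, so the highest deficient animal lay below the lowest wild-type library. The mean was 10.2% of that in wild-type tumors. No change of *Trp53* with restoration was detected in either background, and the difference of effects was -0.05 (SE 0.47). The 2 most abundant genes of the p53 target list were lower in deficient tumors. *Ccng1*, encoding cyclin G1, was 414 to 987 CPM in wild-type libraries and 103 to 231 CPM in deficient animals. *Cdkn1a*, encoding the cell cycle inhibitor p21, was at least 257 CPM against 64.2 to 170 CPM. How many of all genes separate the backgrounds in this way was not counted, and tumor age differs between them as well. Among other genes of the list, *Phlda3* was also lower, at 0.309 to 2.27 CPM against 3.22 to 15.7 CPM. *Plk2* had medians of 108 CPM in deficient and 66.8 CPM in wild-type non-restored tumors, and of 74.2 and 86.7 CPM in restored tumors.

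No gene passed the test of the difference of effects. Of 13706 genes tested with edgeR's quasi-likelihood test, 0 had an adjusted p under 0.05 (0% called), and DESeq2 also called 0. By edgeR, 422 genes (3.08%) had an unadjusted p under 0.05, 212 with a more positive and 210 with a more negative effect in *Trp53*-deficient tumors. Restoration alone called 253 genes in *Trp53* wild-type tumors (1.85%), 127 higher and 126 lower, of which 114 changed by more than 1 on the log2 scale (0.832%), and 3 genes in *Trp53*-deficient tumors (0.0219%), where 896 had an unadjusted p under 0.05 (6.54%). A count of 253 beside a count of 3 does not show a difference between backgrounds, and the test of the difference itself called no gene. The median standard error of the log2 effect was 0.23 with wild-type *Trp53*, 0.324 with deleted *Trp53* and 0.397 for the difference. For the median gene the 95% interval of the difference therefore reached 0.82 to either side, and a difference smaller than that could not be told from 0. The p-values measure the spread between these units, and the study counts fewer mice than libraries in the wild-type groups, so some of these libraries share a mouse and the p-values are too small in that respect.

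**Figure D1:**
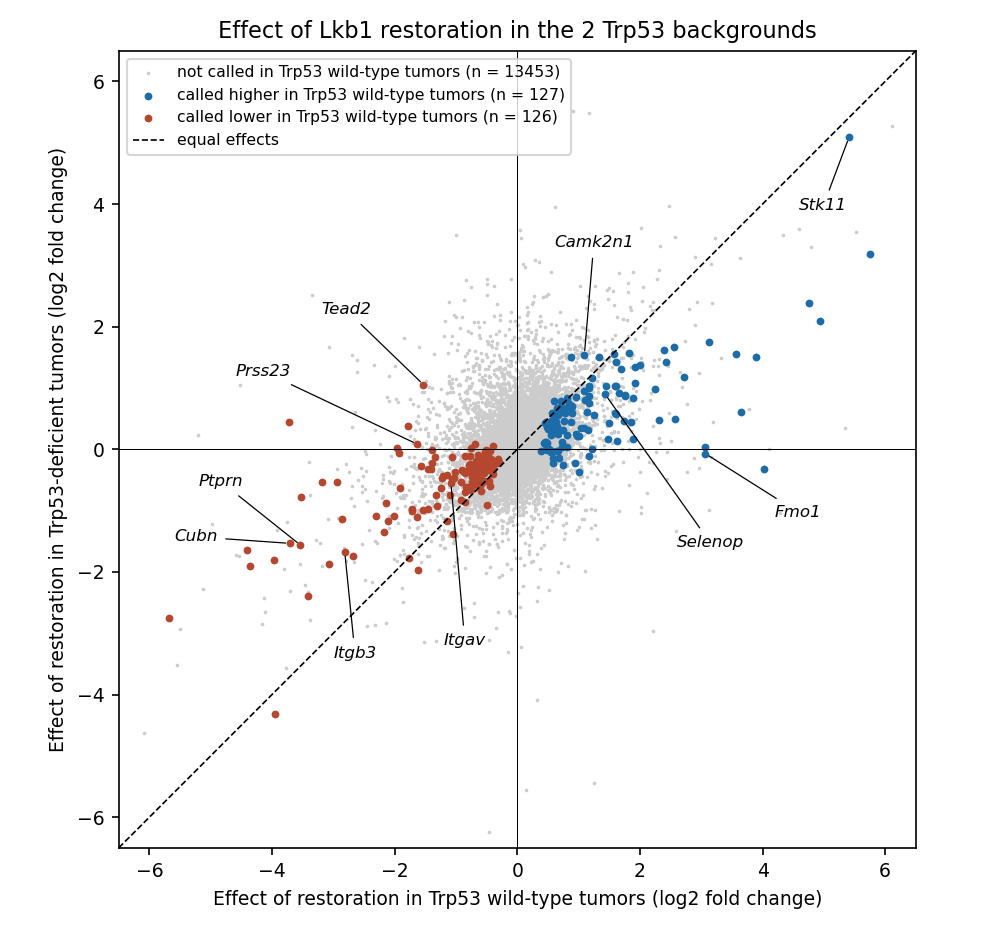
Log2 fold change on restoration in *Trp53*-deficient tumors (vertical axis) against that in *Trp53* wild-type tumors (horizontal axis), 1 point a gene, with the 253 genes called in wild-type tumors marked and 9 genes outside the plotted range of 6.5 left out. Most marked genes (229 of 253) lie in the quadrants of equal sign.

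The genes called in both backgrounds with the same sign were 2 (0.0146% of those tested), *Stk11* and *Camk2n1*. *Camk2n1* (chromosome 4, 138454314 to 138460123) encodes an inhibitor of the calcium/calmodulin-dependent kinase CaMKII. It was 12.4 to 49.3 CPM in non-restored wild-type libraries, with a median of 43.2 CPM, and 69.8 to 101 CPM in restored ones, with a median of 90.4 CPM. In *Trp53*-deficient tumors it was 23.7, 34.6, 24.1 and 27.9 CPM in non-restored and 66, 74.7, 115 and 65.9 CPM in restored animals. Every restored unit lay above every non-restored unit of its background. The log2 fold change was 1.09 (SE 0.19, adjusted p 0.002) with wild-type and 1.54 (SE 0.27, adjusted p 0.0344) with deleted *Trp53*, and the difference was 0.45 (SE 0.33, 95% interval -0.23 to 1.12). The call in *Trp53*-deficient tumors is fragile, since 17 of 42 alternative fits lost it, with adjusted p-values up to 1.

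The third gene called in *Trp53*-deficient tumors was the long noncoding RNA *AC160336.1* (chromosome 14, 44544055 to 44637201), and it went the other way. It was 51.0, 8.8, 28.8 and 65.9 CPM in non-restored and 5.18, 7.16, 9.09 and 3.55 CPM in restored *Trp53*-deficient animals, where the lowest non-restored and the highest restored animal overlapped. In wild-type tumors it was 2.07 to 5.42 CPM without and 1.91 to 5.81 CPM with restoration. Its log2 fold change was -2.64 (SE 0.44, adjusted p 0.0226) with deleted and -0.13 with wild-type *Trp53*, and the difference of -2.50 (SE 0.55, unadjusted p 0.000116) was the smallest p of all genes, with an adjusted p of 1. That adjusted p ranged from 0.0217 to 1 over the alternatives and fell below the threshold in 2 of them, female units alone and without non-restored *Trp53*-deficient animal 2. Its counts were not whole numbers in 27 of 28 libraries, so they are partly reads that RSEM divided between similar sequences.

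To ask how far one response runs in both backgrounds, the 253 genes called in wild-type tumors were followed in the *Trp53*-deficient units. The genes were chosen by the wild-type contrast, in a fit whose filter, scaling and estimate of the spread also used the deficient units. In 229 of the 253 (90.5%) the *Trp53*-deficient effect had the same sign, against 65.4% of all genes tested. The share was 111 of 127 among higher genes and 118 of 126 among lower genes. An unadjusted p under 0.05 was reached by 94 of them (37.2%, against 6.54% of all genes), 93 with the wild-type sign, and in 38 (15.0%) the 4 restored animals lay wholly beyond the 4 non-restored animals in that direction, against 2.88% of all genes. Across these genes the log2 effects of the 2 backgrounds had a Pearson correlation of 0.839, against 0.472 across all genes. Within the higher genes it was 0.699 and within the lower genes 0.661. Choosing genes by large wild-type effects of both signs itself raises the pooled value, so nothing is read from its gap to all genes. Genes are not independent replicates. With each background fitted alone, 230 genes were called in wild-type tumors. Of the 228 also tested in *Trp53*-deficient tumors, 206 (90.4%) had the same sign, against 66% of all genes. Over the other alternatives this share among called genes ranged from 70.6% to 95.5%, highest with sex as a covariate. The lowest came with the tamoxifen control arm alone, where 17 genes were called and the share over all genes was 65.7%.

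The effects were smaller in *Trp53*-deficient tumors, or of opposite sign, for 233 of the 253 genes, against 8815 of all 13706 genes. Over the 253 genes the median ratio of the deficient to the wild-type effect was 0.505. This ratio was close to that of all 13706 genes, 0.526. When the 253 genes with the smallest p in *Trp53*-deficient tumors were chosen in their place, the median ratio of the wild-type to the deficient effect was 0.452, with 87.7% of equal sign, so the background that did not choose the genes had the smaller effects either way. The ratio was 0.705 with sex as a covariate, 0.597 among female units and 0.401 with the tamoxifen control arm alone.

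**Figure D2:**
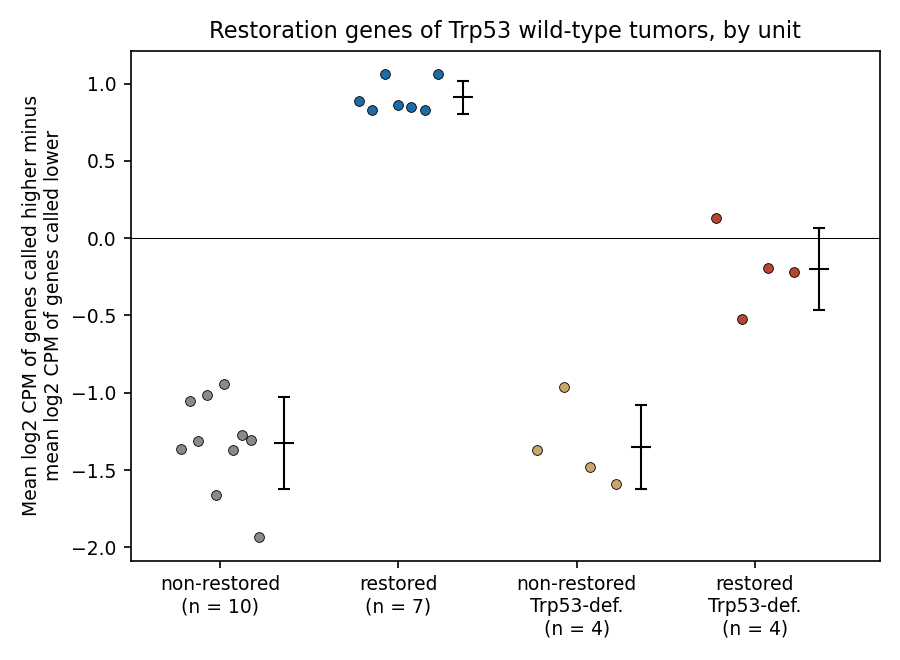
Mean log2 level of 126 genes called higher minus that of 126 genes called lower in wild-type tumors (*Stk11* left out), 1 point a unit, with bars for the mean and SD of each group. The 4 restored *Trp53*-deficient animals, at -0.52 to 0.13, lie above every non-restored unit and below every restored wild-type library.

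The score of these genes by unit describes the same pattern. Its values in wild-type tumors were used to choose the genes and carry no test, -1.94 to -0.95 in non-restored and 0.83 to 1.06 in restored libraries. Non-restored *Trp53*-deficient animals scored -1.37, -0.96, -1.48 and -1.59, inside the non-restored wild-type range. Restored *Trp53*-deficient animals scored 0.13, -0.52, -0.19 and -0.22, with means of -0.20 (SD 0.27, n = 4) against -1.35 (SD 0.27, n = 4). The 2 groups of deficient animals did not overlap. Restored animal 1 scored highest and restored animal 4 had the most *Stk11* (14.9 CPM). Restored animal 2 had both the lowest score and the least *Stk11* (8.55 CPM). A relation of the score to the *Stk11* level was not tested. When each gene was oriented by its wild-type effect, the *Trp53*-deficient level minus the wild-type level had a median of -0.01 on the log2 scale in non-restored tumors (123 genes positive, 130 negative) and -0.41 in restored tumors (37 positive, 216 negative). The wild-type libraries in these differences also chose the genes, so the medians carry no test.

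The 253 genes fall into 4 kinds by their 95% intervals. For 89 (46 higher, 43 lower) the *Trp53*-deficient effect excluded 0 and the difference did not. For 56 (33 higher, 23 lower) the difference excluded 0 and the deficient effect did not. In 103 both intervals held 0, so these data place them in neither class, and in 5 (*Tead2*, *Ptprn*, *Ubr4*, *Cubn* and *Itgav*) neither did. None of the differences passed adjustment over all genes.

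The mean of the 2 effects had the smallest median standard error (0.199) and was used to describe genes across both backgrounds. Its calls are not confined to the first kind, since *Ubr4*, *Ptprn* and *Itgav*, described below, are genes in which neither interval held 0. The mean effect was called in 221 genes (1.61%), 100 higher and 121 lower, and 141 of these were among the 253. *Arid5b* (chromosome 10, 68092520 to 68278740), a DNA-binding subunit of a histone demethylase complex, had similar effects in the 2 backgrounds. It was 143 to 214 CPM in non-restored and 260 to 311 CPM in restored wild-type libraries, and 181, 162, 184 and 137 CPM against 293, 292, 217 and 254 CPM in *Trp53*-deficient animals, with no overlap in either background. Its log2 fold changes were 0.64 (SE 0.09, adjusted p 0.000357) and 0.67 (SE 0.13, adjusted p 0.0895), and the difference was 0.02 (SE 0.16, 95% interval -0.31 to 0.36).

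The antioxidant genes *Selenop* and *Prdx6* were also higher in the mean effect, each with an adjusted p of 0.000339. *Selenop* (chromosome 15, 3268547 to 3280508) encodes a secreted selenium carrier and *Prdx6* (chromosome 1, 161240112 to 161251219) a peroxiredoxin with phospholipase activity that takes part in surfactant turnover. *Selenop* was 288, 393, 294 and 133 CPM in non-restored and 529, 520, 566 and 451 CPM in restored *Trp53*-deficient animals, against 154 to 471 CPM and 787 to 1180 CPM in wild-type libraries. Restored deficient animals stood above all non-restored units of their background and below all restored wild-type libraries. The difference of the *Selenop* effects was -0.54 (SE 0.32, unadjusted p 0.111), and its counts were not whole numbers in 27 of 28 libraries. *Prdx6* was 195, 203, 172 and 168 CPM against 279, 240, 333 and 239 CPM in deficient animals, again without overlap, with a difference of -0.11 (SE 0.17). *Sord* (chromosome 2, 122234749 to 122265340), the sorbitol dehydrogenase of the polyol pathway, was 1.82, 7.57, 4.32 and 4.12 CPM against 9.69, 16.3, 15.4 and 4.44 CPM, where restored animal 4 lay among the non-restored animals. Its log2 fold change was 1.92 (SE 0.27) with wild-type and 1.35 (SE 0.40) with deleted *Trp53*, and the mean effect had an adjusted p of 0.000793.

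**Figure D3:**
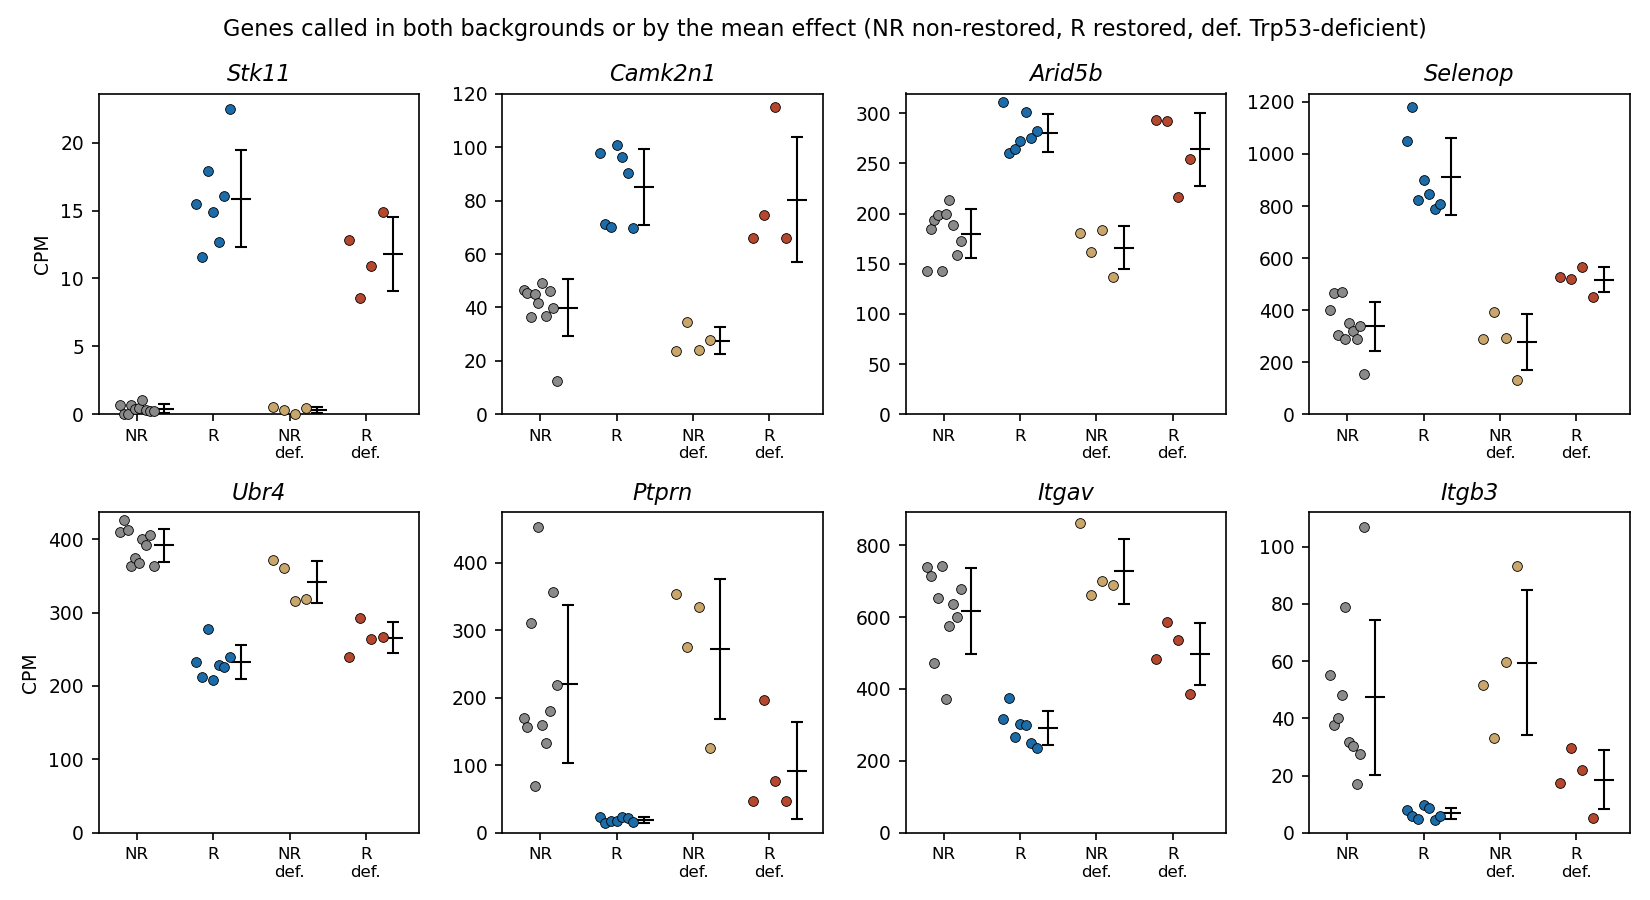
CPM of genes called in both backgrounds or in the mean effect, 1 point a unit, in non-restored (NR) and restored (R) tumors with wild-type *Trp53* and with deleted *Trp53* (def.), with bars for the mean and SD. *Camk2n1* and *Arid5b* separate restored from non-restored units in both backgrounds.

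Among lower genes, *Ubr4* (chromosome 4, 139352609 to 139489588), a ubiquitin ligase of the N-degron pathway, had the smallest adjusted p in the mean effect, 2.03e-05. It was 363 to 426 CPM in non-restored and 208 to 278 CPM in restored wild-type libraries. In *Trp53*-deficient animals it was 371, 361, 315 and 319 CPM against 240, 292, 264 and 267 CPM. The groups did not overlap in either background, yet the log2 fold change of -0.75 (SE 0.07) with wild-type and -0.36 (SE 0.10) with deleted *Trp53* differed by 0.39 (95% interval 0.14 to 0.65, unadjusted p 0.0039, adjusted p 1).

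*Ptprn* (chromosome 1, 75247027 to 75264502) encodes a membrane protein of dense-core secretory granules and is a known CREB-CRTC target. It was 69.7 to 453 CPM in non-restored and 14.2 to 23.2 CPM in restored wild-type libraries. In *Trp53*-deficient animals it was 353, 275, 335 and 125 CPM in non-restored and 47.3, 197, 76.3 and 47.5 CPM in restored animals, where restored animal 2 overlapped the non-restored range. The log2 fold change was -3.54 (SE 0.38, adjusted p 1.46e-05) with wild-type and -1.56 (SE 0.48, unadjusted p 0.00319) with deleted *Trp53*. The difference of 1.97 had a 95% interval of 0.77 to 3.18 and an adjusted p of 1. All 4 restored deficient animals kept more *Ptprn* than any restored wild-type library.

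The αv and β3 integrin subunits, which pair as a receptor for vitronectin and other matrix proteins, were lower in the mean effect with an adjusted p of 0.000339 each. *Itgav* (chromosome 2, 83724397 to 83806916) was 861, 662, 699 and 688 CPM in non-restored and 483, 587, 536 and 386 CPM in restored *Trp53*-deficient animals, with no overlap. With wild-type *Trp53* the ranges were 372 to 743 CPM and 235 to 374 CPM. *Itgb3* (chromosome 11, 104608000 to 104670476) was 51.8, 33.0, 59.8 and 93.4 CPM against 17.3, 29.8, 21.8 and 5.1 CPM in deficient animals, and 16.9 to 107 CPM against 4.47 to 9.55 CPM in wild-type libraries. Both subunits had a smaller log2 effect with deleted *Trp53*, -0.55 against -1.08 for *Itgav* (difference unadjusted p 0.0261) and -1.68 against -2.81 for *Itgb3* (0.0673).

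The mean effect alone called 79 genes that neither background called, 31 higher and 48 lower, and 65 of them had the larger effect in *Trp53*-deficient tumors. Leaving out the genes called in wild-type tumors favors that direction, so nothing is read from the count. The 4 genes named next were chosen after their values were seen. The complement gene *C6* was 3.89, 5.1, 1.08 and 0.915 CPM in non-restored and 93.3, 41.4, 7.27 and 4.21 CPM in restored *Trp53*-deficient animals (mean effect adjusted p 0.0151). The flagellin receptor gene *Tlr5* was 1.43, 2.63, 0.9 and 1.83 CPM against 7.21, 9.54, 13.2 and 2.88 CPM (0.0236). *Bcr* was 283, 160, 155 and 213 CPM against 99.6, 132, 67.7 and 101 CPM (0.00539). *Pgm5*, encoding a phosphoglucomutase-like protein of adherens junctions, was 21.3, 14.7, 10.8 and 2.75 CPM against 2.25, 1.19, 0.909 and 1.11 CPM (0.00899). *C6* overlapped between the deficient groups, and *Tlr5*, *Bcr* and *Pgm5* did not. Chosen in the same way, *Ttll7* (a tubulin polyglutamylase gene) and *Prokr1* (a prokineticin receptor gene) were lower in the mean effect (adjusted p 0.000912 and 0.000793). Their log2 fold changes with wild-type and deleted *Trp53* were -0.50 and -0.91 for *Ttll7* and -1.04 and -1.38 for *Prokr1*.

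**Figure D4:**
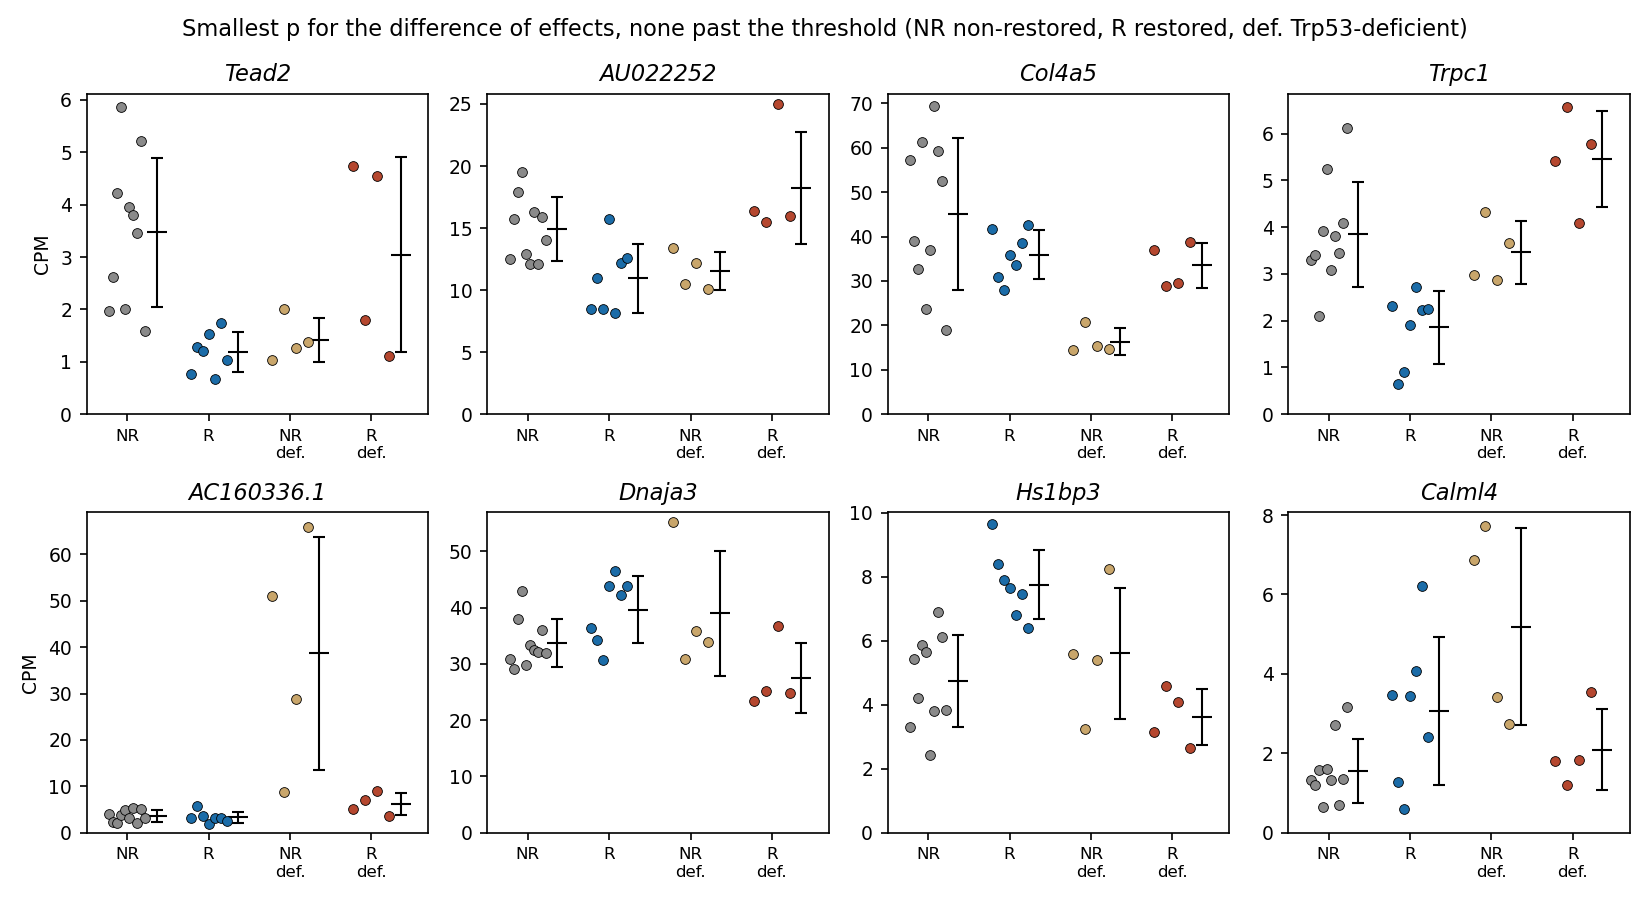
CPM of genes with the smallest p for the difference of effects, 1 point a unit, in non-restored (NR) and restored (R) tumors with wild-type *Trp53* and with deleted *Trp53* (def.), with bars for the mean and SD. None passed adjustment over all genes, and several sit at a few CPM.

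The genes nearest to a dependence on *Trp53* are given as values, since none passed. Among those with a more positive effect in *Trp53*-deficient tumors, the smallest p belonged to *Tead2* (chromosome 7, 45215753 to 45233644), a transcription factor at the end of the Hippo pathway. It was 1.58 to 5.86 CPM in non-restored and 0.681 to 1.74 CPM in restored wild-type libraries, and 1.04, 2.01, 1.26 and 1.37 CPM against 4.73, 1.79, 4.54 and 1.11 CPM in deficient animals. The direction was opposite in the 2 backgrounds, with log2 fold changes of -1.53 (SE 0.37, adjusted p 0.0317) and 1.05 (SE 0.49, unadjusted p 0.0408) and a difference of 2.58 (SE 0.61, unadjusted p 0.00029). No unit held more than 23 counts of *Tead2*, and only restored animals 1 and 3 stood above the non-restored deficient animals. Fibroblast marker sums in restored animals 1 and 3 were 1528 and 81.77 CPM and endothelial sums 54.52 and 77.68 CPM, against 9.154 to 382.5 CPM and 5.035 to 39.07 CPM in non-restored deficient animals. Their part in the *Tead2* values was not tested.

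*Col4a5* (chromosome X, 141475385 to 141689234), encoding a collagen IV chain of basement membranes, was 14.5, 20.8, 15.3 and 14.6 CPM in non-restored and 36.9, 28.8, 29.5 and 38.8 CPM in restored *Trp53*-deficient animals, without overlap. In wild-type libraries it was 19.0 to 69.4 CPM and 27.9 to 42.6 CPM. The difference of effects was 1.35 (SE 0.36, unadjusted p 0.000901) and lay between 1.21 and 1.51 over all alternatives, sex as a covariate and female units alone included. The calcium-permeable channel gene *Trpc1* (chromosome 9, 95705082 to 95750375) was 2.11 to 6.11 CPM in non-restored and 0.646 to 2.72 CPM in restored wild-type libraries, and 2.98, 4.32, 2.88 and 3.66 CPM against 5.41, 6.56, 4.09 and 5.77 CPM in deficient animals (difference 1.67, SE 0.44, unadjusted p 0.000904). *AU022252* (chromosome 4, 119203570 to 119232712) was 13.4, 10.5, 12.2 and 10.1 CPM against 16.4, 15.5, 25 and 16 CPM in deficient animals and 12.1 to 19.5 CPM against 8.17 to 15.7 CPM in wild-type libraries (difference 1.08, SE 0.27, unadjusted p 0.000463).

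Toward a more negative effect in *Trp53*-deficient tumors, *AC160336.1* was followed by 3 protein-coding genes, with 1 pseudogene passed over by the naming rule. *Dnaja3* (chromosome 16, 4639989 to 4707695), a mitochondrial co-chaperone gene, was 55.3, 30.9, 35.8 and 33.9 CPM in non-restored and 23.4, 25.2, 36.8 and 24.8 CPM in restored deficient animals (difference -0.75, SE 0.22, unadjusted p 0.00235). *Hs1bp3* (chromosome 12, 8313432 to 8343824) was 5.58, 3.24, 5.4 and 8.24 CPM against 3.15, 4.57, 4.09 and 2.66 CPM (difference -1.30, SE 0.38). *Calml4* (chromosome 9, 62858080 to 62875921), a calmodulin-like gene of epithelial brush borders, was 6.87, 7.72, 3.42 and 2.75 CPM against 1.8, 1.19, 1.82 and 3.55 CPM (difference -2.29, SE 0.68). All 3 overlapped between the deficient groups.

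Among the 56 called wild-type genes whose difference excluded 0, those below were picked after their values were seen. *Apobec3*, a cytidine deaminase gene of antiviral defense, was 13.9 to 69.4 CPM in non-restored and 11 to 22 CPM in restored wild-type libraries (log2 fold change -1.39, adjusted p 0.00141). In *Trp53*-deficient animals it was 79.1, 74.9, 103 and 119 CPM against 85.6, 113, 91.8 and 84.1 CPM, higher than in any wild-type library and with a log2 fold change of -0.01. The difference of 1.38 (SE 0.37) had an unadjusted p of 0.00106. *Ajuba*, encoding a LIM scaffold that restrains LATS kinases in the Hippo pathway, fell by 1.35 on the log2 scale in wild-type tumors (adjusted p 0.000442) and was 16.1, 14.1, 10.8 and 13.7 CPM against 10.8, 13.3, 13.2 and 12.6 CPM in deficient animals (difference 1.21, unadjusted p 0.00106). *Acss1*, encoding the mitochondrial acetyl-CoA synthetase, was 18.4 to 32.6 CPM against 43.3 to 75.8 CPM in wild-type libraries and 16.6, 28.7, 29.9 and 19.7 CPM against 34.7, 30.2, 30.9 and 25.5 CPM in deficient animals (difference -0.74, unadjusted p 0.0073). The adjusted p of the difference was 1 for each of these genes, and over the alternatives only *Apobec3* went below the threshold, in the fit with a block for replicate number (0.023).

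**Figure D5:**
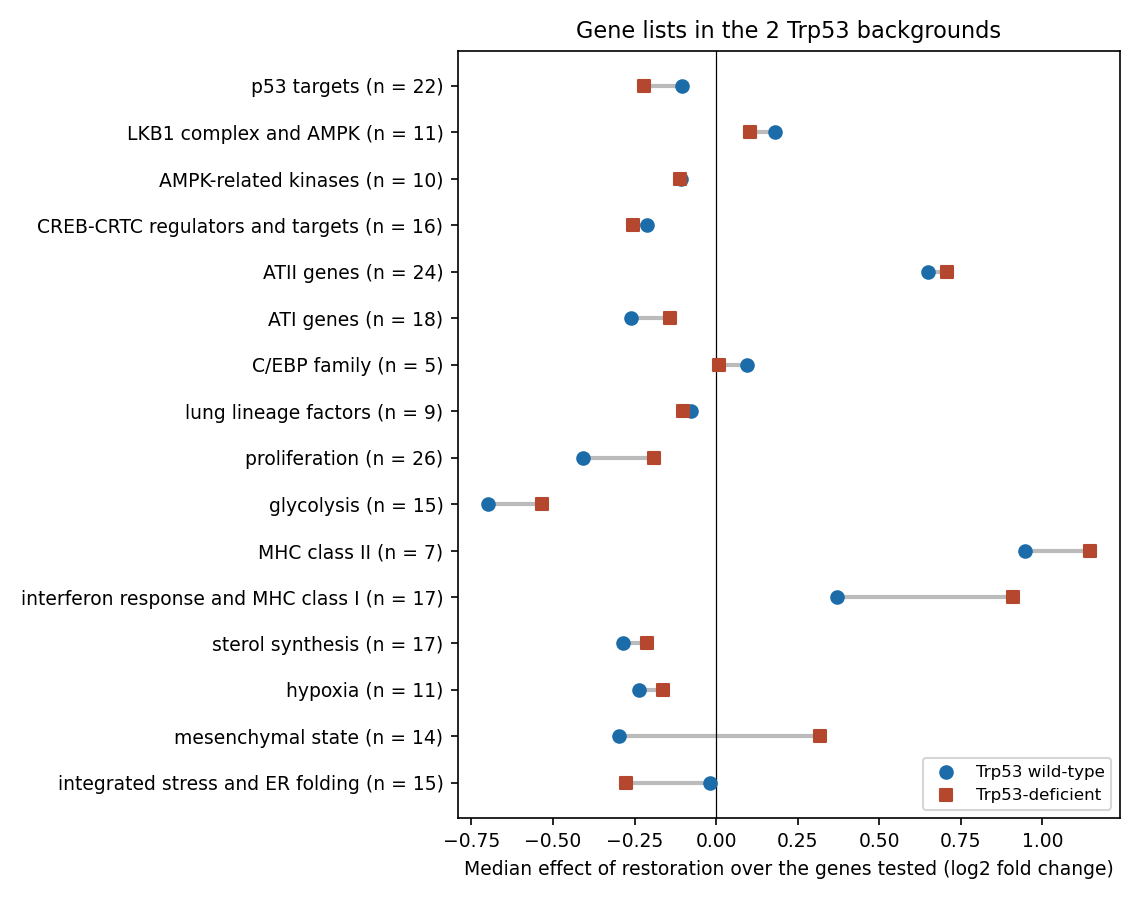
Median log2 fold change on restoration of each gene list, 1 point for *Trp53* wild-type and 1 for *Trp53*-deficient tumors, with a vertical line at 0. The mesenchymal list, which also holds the epithelial genes *Cdh1* and *Epcam*, has medians of opposite sign in the 2 backgrounds.

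Gene lists were described by their counts and medians, beside medians over all genes of -0.007 with wild-type *Trp53*, 0.002 with deleted *Trp53* and 0.013 for the difference. Of all genes, 1.85% were called with wild-type *Trp53*, 0.0219% with deleted *Trp53* and 1.61% in the mean effect. An unadjusted p under 0.05 was reached by 6.54% with deleted *Trp53* and by 3.08% for the difference. Of 22 p53 target genes, 0 were called in either background or in the mean effect by edgeR, with 5 at an unadjusted p under 0.05 in *Trp53*-deficient tumors. Their median log2 fold change was -0.11 with wild-type and -0.22 with deleted *Trp53*. *Ccng1* was as high in restored as in non-restored tumors of both backgrounds, at means of 631 and 632 CPM and of 177 and 173 CPM. The largest positive difference of effects in the list was that of *Phlda3* (1.80, unadjusted p 0.00793), a repressor of Akt signaling. It was at 0.309 to 0.54 CPM in non-restored and 0.887 to 2.27 CPM in restored deficient animals and was picked after its values were seen. These levels rest on 1 to 4 and 4 to 8 counts an animal, near the floor.

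Of 11 genes of the LKB1 complex and AMPK, only *Stk11* was called, and the median difference of the list was 0.10. Of 10 AMPK-related kinase genes, *Sik1*, itself a CREB target, was lower after restoration in wild-type tumors (log2 fold change -0.85, SE 0.21, adjusted p 0.0383) and in the mean effect (adjusted p 0.0165). It was 138, 111, 152 and 301 CPM in non-restored and 64.7, 156, 80.0 and 83.8 CPM in restored *Trp53*-deficient animals, a log2 fold change of -0.86 (SE 0.30). The difference was -0.02 (SE 0.36). Restored animal 2 overlapped the non-restored range, as it did for *Ptprn*.

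Of 16 CREB-CRTC regulators and targets, *Ptprn* was called lower and none higher. In *Trp53*-deficient tumors 6 had an unadjusted p under 0.05, against 6.54% of all genes, and 6 had positive effects. For the difference, 2 had an unadjusted p under 0.05, against 3.08% of all genes. The list medians were -0.21 and -0.25. *Dusp1*, a phosphatase gene induced by CREB, had log2 fold changes of -0.23 and -0.69 (difference unadjusted p 0.176), and the nuclear receptor gene *Nr4a1* of -0.39 and -0.89 (0.29). Neither was called.

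Genes of alveolar type II (ATII) cells, which make surfactant, had positive effects in both backgrounds. Of 24 ATII genes, 22 were positive with wild-type and 23 with deleted *Trp53*, with medians of 0.65 and 0.71, and 0 had a difference with an unadjusted p under 0.05. The study displayed part of this list from these libraries, so its direction is not independent evidence. *Bex2* and *Bex4* were called higher in wild-type tumors. In the mean effect *Lyz2* (adjusted p 0.0286) and *Cxcl15* (0.0316) were higher and *Il33* (0.0358), encoding an alarmin cytokine, was lower. *Cxcl15*, a chemokine gene of lung epithelium, was 2730, 3100, 4210 and 1480 CPM in non-restored and 6320, 7210, 6450 and 11500 CPM in restored deficient animals, without overlap. The lysozyme gene *Lyz2* was 948, 973, 984 and 44.9 CPM against 7090, 3080, 2180 and 2380 CPM, with reads that can be divided with its paralog *Lyz1*. The surfactant genes *Sftpc* and *Sftpa1* had log2 fold changes of 0.66 and 1.23 with wild-type and of 1.40 (unadjusted p 0.0484) and 1.58 (0.0184) with deleted *Trp53*, and were not called.

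Among the 7 epithelial markers, *Sftpc*, itself an ATII gene, accounted for most of the difference in the mean sum, and the 5 markers other than *Sftpc* and *Sftpb* had negative effects in both backgrounds. The sums of all 7 were 7703 to 21720 CPM in non-restored and 22360 to 28830 CPM in restored *Trp53*-deficient animals, and 6615 to 42060 CPM against 24860 to 57500 CPM with wild-type *Trp53*. Without the 2 units of lowest epithelial sum, the ATII medians were 0.51 and 0.45 and the median difference 0.04. The 5 markers without *Sftpc* and *Sftpb* summed to 2015 to 3345 CPM in non-restored and 1687 to 2686 CPM in restored deficient animals, and to 1909 to 3239 CPM against 1302 to 2742 CPM with wild-type *Trp53*. The part of these sums in the ATII values was not tested.

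Genes of MHC class II, which ATII cells also express, were positive for 7 of 7 genes in both backgrounds, with medians of 0.95 and 1.15, and 0 were called. *Cd74*, the invariant chain gene, had log2 fold changes of 0.73 and 1.15 and *H2-Aa* of 1.02 and 1.36. Of 17 interferon response and MHC class I genes, 0 were called, and the medians were 0.37 and 0.91. That gap came with 1 animal. Restored *Trp53*-deficient animal 2 had 2300 CPM of *B2m*, 1080 CPM of *H2-D1* and 848 CPM of *H2-K1*, against 292 to 479, 297 to 376 and 173 to 236 CPM in the other 3 restored animals, and without it the median with deleted *Trp53* was 0.03 and the median difference -0.21. Its immune marker sum of 64.01 CPM lay within the range of the non-restored deficient animals (42.8 to 76.69 CPM).

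Among 18 alveolar type I (ATI) genes, *Emp2* was called lower in wild-type tumors (-0.61, adjusted p 0.0272) and in the mean effect (0.029), with an effect of -0.44 in *Trp53*-deficient tumors. Of 5 C/EBP family genes and 9 lung lineage factors, including *Cebpa* and *Nkx2-1*, 0 were called and 0 had a difference with an unadjusted p under 0.05. Their median differences were -0.12 and 0.004.

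Proliferation genes had median effects of -0.41 with wild-type and -0.19 with deleted *Trp53*, with positive effects in 2 and 9 of 26 genes. None of the 26 was called in any comparison by edgeR, and 3 had an unadjusted p under 0.05 for the difference, the replication genes *Mcm3*, *Mcm7* and *Tyms*. *Mcm3* was 4.83 to 19.7 CPM against 3.09 to 8.02 CPM in wild-type libraries and 6.1, 9.27, 6.66 and 4.58 CPM against 13.5, 11.3, 9.09 and 10.9 CPM in deficient animals (difference 1.43, SE 0.44, unadjusted p 0.00352). *Mki67* (0.31, SE 0.81) and *Pcna* (-0.20, SE 0.23) had differences within their standard errors. The median difference of the list, 0.32, ranged from -0.15 to 0.69 over the alternatives, and the median with deleted *Trp53* from -0.68 to 0.21, so both changed sign.

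Glycolysis genes had negative effects in both backgrounds, with medians of -0.70 and -0.53 and equal signs in 14 of 15. *Eno1*, encoding enolase, was called lower in wild-type tumors (-1.32, adjusted p 0.00899) and in the mean effect (0.0184), and was 185, 107, 153 and 203 CPM against 41.7, 154, 104 and 88.3 CPM in deficient animals. Of 17 sterol synthesis genes, *Cyp51* was lower in wild-type tumors (adjusted p 0.0329) and *Fdps* (0.0398) and *Msmo1* (0.0392) in the mean effect, with list medians of -0.29 and -0.21. No difference in either list had an unadjusted p under 0.05. For 11 hypoxia genes the medians were -0.24 and -0.16 and 0 were called.

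The mesenchymal list had the largest gap between backgrounds among the lists of tumor cell programs, with medians of -0.30 with wild-type, 0.32 with deleted *Trp53* and 0.93 for the difference. The 14 genes tested include the epithelial *Cdh1* and *Epcam*, entered with their signs unchanged, so the medians do not measure a mesenchymal shift alone. Of the 14, the integrin genes *Itgav* and *Itgb3* were called lower, in wild-type tumors and in the mean effect. The fibronectin gene *Fn1* was 828, 763, 717 and 553 CPM in non-restored and 2210, 307, 740 and 448 CPM in restored deficient animals (difference 1.68, SE 0.72, unadjusted p 0.0285). Restored animal 1, which had the most *Fn1*, also had a fibroblast marker sum of 1528 CPM, against 2.218 to 248.7 CPM in the other 3 restored animals. Without it the list medians were -0.21 with wild-type, -0.14 with deleted *Trp53* and 0.37 for the difference. The 7 fibroblast markers, tested as genes, had a median difference of 1.25, and 0 were called.

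Of 15 genes of the integrated stress response and endoplasmic reticulum (ER) folding, 3 were called higher in wild-type tumors, where 1.85% of all genes were called. They were *Dnajb9* (ER co-chaperone), *Herpud1* (ER-associated degradation) and *Fkbp11* (ER prolyl isomerase). In *Trp53*-deficient tumors their log2 fold changes were 0.01, 0.04 and -0.36, and each difference had an unadjusted p under 0.05 (0.0366, 0.0151 and 0.00442) and an adjusted p of 1. *Herpud1* was 70.3 to 148 CPM in non-restored and 149 to 277 CPM in restored wild-type libraries, and 123, 115, 96.1 and 83.3 CPM against 94.2, 111, 120 and 104 CPM in deficient animals. *Dnajb9* was 252 to 285 CPM in non-restored deficient animals, within the range of restored wild-type libraries apart from 1 animal at 252 CPM. The median difference of the list was -0.35 and lay between -0.45 and -0.16 over all alternatives. The 3 genes were among those picked by the wild-type comparison, so their smaller deficient effects share its selection.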

How the data were processed

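RNA was sequenced from sorted lung tumor cells. Per the labels, libraries came from nanogram amounts of total RNA after ribosomal RNA depletion. Reads were aligned by the authors to mm10 with STAR 2.6.1d and summed per gene with RSEM 1.2.30, as the submitters' processing notes list. Expected counts, as deposited, are estimated reads per gene without normalization, and a read that matches several genes is divided between them. The authors also deposited TPM, effective lengths, a table of normalized counts and tables of log2 fold changes and p-values from their own comparisons with DESeq2, and these comparison tables were not used. Effective lengths served only in 1 alternative, and the number of per-sample columns with no known sample was 0.

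The labels gave the groups. Expected counts were summed over libraries of one animal and rounded. The 25 units were fitted in 4 groups with edgeR 4.0.16 (quasi-likelihood F test, robust dispersions, TMM scaling, filterByExpr, limma 3.58.1, R 4.3.3), with Benjamini-Hochberg adjustment over 13706 genes and a threshold of 0.05. Contrasts were the restoration effect in each background, their difference and their mean. CPM are relative to the TMM-scaled total, and logs used a prior count of 2. The fit was also run on simulated counts, with changes planted in restored deficient units alone and no restoration effect in wild-type units. That setting differs from these data, so nothing is read from it. Floors assume 3 counts and cover counting error only. All 25 units matched their labelled sex, and 0 pairs of libraries were identical.

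Named genes were *Stk11* and *Trp53*, up to 8 genes a direction called for the difference (filled up to 4 with the smallest p), up to 8 a direction called in both backgrounds, 4 a direction with the smallest p in the mean effect among genes called in 1 background, and of each list the genes called for the difference or in deficient tumors and the 2 with the highest level. Predicted genes and pseudogenes were counted and not named unless first in their direction. Other genes were picked after their values were seen. Members, lists and tests were chosen with earlier results of these data known.

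The 17 alternatives tried were DESeq2 1.42.0, median-of-ratios scaling, no low-count filter, at least 10 counts in every unit, effective-length offsets, 28 separate libraries, sex as a covariate, female units alone, each control arm alone, each title series alone, each background alone, *KT* libraries added, a replicate block, non-robust dispersions and each unit left out in turn. Leaving out both units of low epithelial sum was added after seeing the data.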

Additional observations from a re-analysis of the deposited data

Results flagged for a closer look

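In 5 of 80 groups of units tested, 1 unit stood farther from the rest than Dixon's 95% limit, which chance gives in about 1 group in 20. *AU022252* was 25 CPM in restored *Trp53*-deficient animal 3 and 15.5 to 16.4 CPM in the other 3. *Col4a5* was 20.8 CPM in non-restored *Trp53*-deficient animal 2 and 14.5 to 15.3 CPM in the others. *Dnaja3* was 36.8 CPM in restored *Trp53*-deficient animal 3 and 23.4 to 25.2 CPM in the others. Non-restored replicate 8, which also had the lowest epithelial marker sum, had 12.4 CPM of *Camk2n1*, against 36.4 to 49.3 CPM in the other 9 libraries, and 154 CPM of *Selenop*, against 288 to 471 CPM.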

How the results depend on the processing

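The absence of calls for the difference of effects held in most alternatives. Exceptions were 1 gene with female units alone (*AC160336.1*), 1 with the vehicle control arm alone (the pseudogene *Rpl3-ps1*), 2 with a block for replicate number (*Apobec3* and *Rpl3-ps1*), and 0 to 1 with single units left out, where the call came without non-restored *Trp53*-deficient animal 2 (*AC160336.1*) or non-restored replicate 9 (*Rpl3-ps1*). No called effect of a named gene changed sign under the alternatives run.

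Counts of restoration calls depended more on the processing. In the order wild-type, *Trp53*-deficient, mean effect and shared calls they were 459, 15, 544 and 10 with DESeq2, whose 10 shared calls included the Y-linked *Ddx3y*, *Eif2s3y* and *Uty* (the restored groups were all female). Without a filter on low counts there were 144 wild-type and 118 mean calls. Requiring at least 10 counts in every unit removed *Stk11* from the test and left 1 *Trp53*-deficient and 1 shared call, *Camk2n1*. With 28 separate libraries there were 5 *Trp53*-deficient and 4 shared calls. Sex as a covariate gave 5 *Trp53*-deficient and 345 mean calls, and female units alone gave 149, 5 and 147 for wild-type, deficient and mean. The tamoxifen control arm alone gave 17 wild-type, 53 mean and 1 shared call, and the vehicle arm alone 159, 1, 66 and 1. *Trp53*-deficient units with JB titles alone gave 1, 11 and 1 for deficient, mean and shared calls, and those with rSP or tSP titles 80 mean calls. With a fit of each background alone the *Trp53*-deficient count was 0, and the adjusted p of *Stk11* was 0.0586. The fits with 1 control arm, 1 title series, 1 sex or 1 background use fewer units, and for the others the cause was not tested.

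With single units left out, wild-type calls ranged from 106 (without restored replicate 7) to 270, and were 142, 122, 141 and 134 without restored replicates 1, 2, 3 and 6. Mean calls ranged from 98 (without restored *Trp53*-deficient animal 1) to 330 (without non-restored replicate 8), and were 120, 126 and 125 without non-restored *Trp53*-deficient animals 1, 3 and 4. *Trp53*-deficient calls ranged from 1 to 5 and shared calls from 1 to 3. Without both units of low epithelial sum there were 0, 259, 2, 179 and 2 calls for the difference, wild-type, deficient, mean and shared comparisons.

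Labels gave both wild-type groups replicate numbers. Libraries with the same number deviated together with correlations of 0.033 to 0.461 over 7 pairs, and 0 of 7 correlated best with their own number, so the numbers were not taken as pairs. The replicate block gave 170 wild-type, 2 *Trp53*-deficient, 284 mean and 2 shared calls.

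With 4 *Trp53*-deficient units a group, unequal depth and tumor ages that do not overlap between the backgrounds, a difference of moderate size could not be told from 0 in most genes.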
